A study of Mus musculus with 12 samples.

Results

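Virus for overexpression of the long noncoding RNA lncRNA8276 was compared with the 5NC virus in C18-4 cells, a line established from mouse spermatogonial stem cells. The comparison rests on 6 of the 12 libraries of total RNA in the series, 3 of 8276OV and 3 of 5NC, and covers 11360 of the 17576 genes in the deposited table, those that reached 1 in 3 or more of the 12 libraries. The other libraries are 3 of 8276KD (inhibition of the same RNA) and 3 of 3NC. Cells of both compared groups received virus, and the strain on every label is IRC mouse. Neither abbreviation, 5NC or 3NC, is explained in the labels; 5NC was taken as the control because the design text names it next to overexpression. Whether the 3 libraries of a group stem from different cultures is not said. The p-values rest on the spread within the 4 groups of all 12 libraries, which may be technical. lncRNA8276 itself was not analysed here, and the label of the 8276OV libraries was therefore not checked by it. Levels are in FPKM as read from the values, and each fold change is 8276OV minus 5NC on the log2(value + 1) scale.

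Long noncoding RNAs do not encode proteins, and those described in detail act through the proteins, transcripts or chromatin they bind. Spermatogonial stem cells are kept in culture by growth factors of the surrounding somatic cells, which act through ERK, PI3K and BMP signalling and through transcription factors such as Etv5 and Id4. The genes described below belong to the machinery that such a cell shares with most dividing cells: protein synthesis and folding, the proteasome, the respiratory chain, the stress response controlled by ATF4, the cell cycle in G1 phase, and the proteins of the cell surface.

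The germ cell markers examined were low. All 7 germ cell markers examined (Ddx4, Dazl, Zbtb16, Gfra1, Kit, Stra8 and Sycp3) stayed below 1 in all 6 libraries, and their summed level was 0.49 to 0.63 FPKM in 8276OV and 0.39 to 0.63 FPKM in 5NC. All 7 markers of mesothelial and surface epithelial cells were at 1 or more in all 8276OV libraries, with sums of 897.43 to 1028.22 FPKM in 8276OV and 1264.55 to 1285.45 FPKM in 5NC. Members split: Upk3b, which makes up the largest share of the sum, was at 456.84, 536.3 and 485.9 FPKM in 8276OV and at 781.62, 788.87 and 803.99 FPKM in 5NC, while Upk1b was at 151.18, 149.24 and 150.08 FPKM in 8276OV and at 114.88, 107.95 and 110.42 FPKM in 5NC. After the GC correction described below, Krt8, Krt18, Krt19 and Upk1b were called higher in 8276OV (fold changes 0.51, 0.14, 0.43 and 0.34) and Upk3b and Lrrn4 lower (-0.36 and -0.31). As deposited, Krt18 was called lower (-0.35), and Krt8 and Krt19 were not called (-0.03 and -0.13). The direction of these keratins therefore depends on the fit, and none is given for them. Wt1, a transcription factor of Sertoli and mesothelial cells, was at 49.82, 50.39 and 49.0 FPKM in 8276OV and at 52.35, 53.06 and 51.5 FPKM in 5NC, while Sox9 and Amh of Sertoli cells stayed below 1. Wt1 was not called as deposited (fold change -0.07) but was called higher after GC correction (0.23). The summed Sertoli cell markers, mostly Wt1, were at 53.55 to 55.87 FPKM in 8276OV and 58.73 to 60.36 FPKM in 5NC. Of 7 markers of peritubular myoid cells 5 were at 1 or more in all 8276OV libraries, with sums of 68.6 to 79.27 FPKM in 8276OV and 90.16 to 93.87 FPKM in 5NC. Of 5 macrophage markers in the table Cd68 alone, of 4 Leydig cell markers Star alone and of 5 endothelial markers none reached 1 in all 8276OV libraries. Summed macrophage markers were at 1.64 to 2.13 FPKM in 8276OV and 2.13 to 2.4 FPKM in 5NC, Leydig cell markers at 1.32 to 1.63 FPKM in 8276OV and 1.1 to 1.27 FPKM in 5NC, and endothelial markers at 0.79 to 1.15 FPKM in 8276OV and 0.63 to 1.07 FPKM in 5NC. Cyp11a1, Cyp17a1 and Cdh5 were listed at 0 in all 6 libraries. Sycp3 reached 0.4 and Gfra1 0.17 FPKM at most, so the 7 germ cell markers examined were at low levels or at 0. Id4 and Etv5, given further on, are not among these 7. The part of the somatic markers in the differences below was not tested.

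Fold changes followed the GC content of the transcripts, and this trend touches every count below. Across the 11140 tested genes with a GC content, the median fold change was 0.39 in the lowest of 10 equal classes of GC content (median 40.3%) and -0.69 in the highest (median 60.0%). Spearman's rho between GC content and fold change was -0.82 over genes, which do not count as independent replicates. The slope of a library's log2 values against GC content, per 10 points, was -0.49, -0.25 and -0.38 in the 3 libraries of 8276OV, against 0.21, 0.16 and 0.20 in those of 5NC. Slopes of 8276KD libraries ranged from -0.05 to 0.20 and those of 3NC from 0.11 to 0.16. The slope therefore separates 8276OV from the 9 other libraries and also differs among its own 3, and what produced it was not tested. In a GC-corrected fit, a smooth curve of each library's deviations on GC content was removed, after which the medians of the 10 classes lay between -0.02 and 0.03. A trend with transcript length remained, with a median of 0.16 in the shortest of 10 classes (median 922 bases) and -0.07 in the longest (median 7450 bases), and a further fit removed GC content and length together. Both corrections also remove any real difference that runs along GC content or length.

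**Figure D1:**
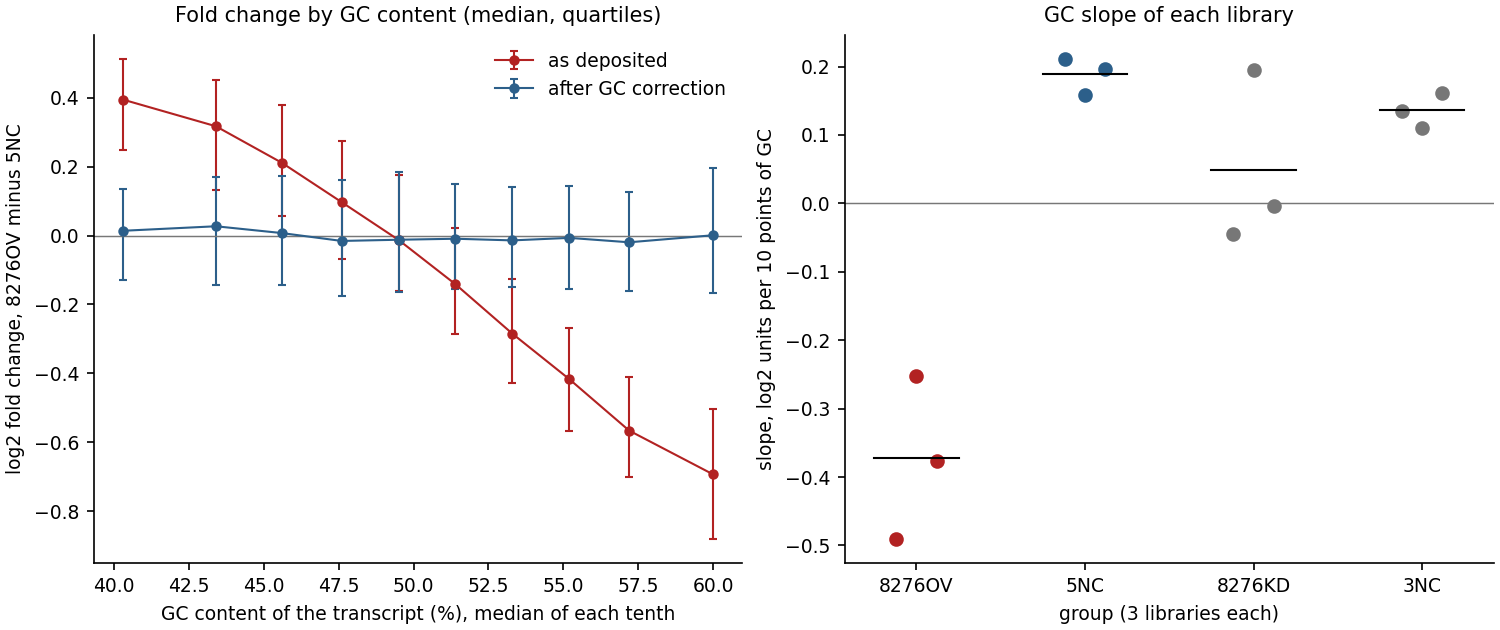
Left, median log2 fold change of 8276OV minus 5NC in 10 equal classes of genes by transcript GC content, as deposited (red) and after GC correction (blue), with the quartiles as bars. Right, the slope of log2 values on GC content in each library (points) with the group mean (line); the 3 libraries of 8276OV lie between -0.49 and -0.25, all others between -0.05 and 0.21.

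4 stretches of coding sequence show what the trend separates, a pair that changed along it and a pair that changed against it. Each holds 90 bases from the middle codon of the coding sequence on, plus strand of GRCm38 (mm10) as annotated by GENCODE M21, with G and C in capitals.
Klf6: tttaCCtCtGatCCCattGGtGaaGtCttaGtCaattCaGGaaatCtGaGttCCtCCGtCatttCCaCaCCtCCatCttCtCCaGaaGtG
Chchd10: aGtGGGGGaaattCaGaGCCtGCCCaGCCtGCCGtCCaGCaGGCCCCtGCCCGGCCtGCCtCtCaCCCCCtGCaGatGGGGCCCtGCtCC
Klf2: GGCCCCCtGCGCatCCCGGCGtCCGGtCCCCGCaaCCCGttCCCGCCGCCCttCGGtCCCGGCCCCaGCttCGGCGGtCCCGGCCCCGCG
Vldlr: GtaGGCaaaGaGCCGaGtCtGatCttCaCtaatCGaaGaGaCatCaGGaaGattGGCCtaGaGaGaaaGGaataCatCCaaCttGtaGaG
Klf6 (chr13:5865041-5865130), a zinc finger transcription factor, has 44.4% G and C in this stretch and 42.4% over its transcript, and its fold change was 0.83 as deposited and 0.52 after GC correction. Chchd10 (chr10:75936404-75937354, across an intron), a protein of the mitochondrial intermembrane space, has 71.1% here and 61.9% over its transcript, with fold changes of -1.58 as deposited and -0.81 after correction. Both moved the way their GC content would place them, and both passed the test in either fit with the smaller value after correction. Klf2 (chr8:72319885-72319974), a relative of Klf6, has 82.2% here and 61.6% over its transcript and yet rose, by 0.32 as deposited and 1.07 after correction. Vldlr (chr19:27239967-27240551, across an intron), a lipoprotein receptor, has 44.4% here and 47.2% on average over its transcripts and yet fell, by 0.39 as deposited and 0.52 after correction.

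As deposited, 8452 of 11360 genes passed an adjusted p of 0.05 in limma (74.4%), 3447 with a higher value in 8276OV (30.3%) and 5005 with a lower one (44.1%). After GC correction 5980 of 11140 passed (53.7%), 2975 higher (26.7%) and 3005 lower (27%), and after correction for GC content and length 5952 (53.4%), 3053 higher (27.4%) and 2899 lower (26%). These shares are the background for every list below. Fold changes also differed with level. In the highest of 10 classes by mean level (median 144.25 FPKM), the median was 0.17 as deposited, 0.14 after GC correction and 0.09 with length included. In the class with a median of 11.94 FPKM, the medians were -0.11, -0.03 and -0.006. Lists of abundant genes were not compared with other genes of the same level. Most changes were small: beyond 1 on the log2 scale there were 7 rises (0.0616%) and 234 falls (2.06%) as deposited, and 14 rises (0.126%) and 10 falls (0.0898%) after GC correction. Of the 8308 genes called as deposited that have a GC content, 3972 were called with the same sign after correction (1857 higher and 2115 lower), 3687 were no longer called, and 649 were called with the opposite sign, 539 of them higher in 8276OV after correction. The split between rises and falls as deposited depends on the scaling: 4191 genes were higher and 4255 lower with median-of-ratios factors, and 4428 higher and 3997 lower with quantile normalization, which moved the median of all genes by over 0.1, to 0.03, against -0.09 as deposited. In what follows, rose and fell are used of single genes that passed the test with the same sign as deposited and after GC correction, unless a fit is named; counts over a list are those of the fit named beside them.

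Genes were ranked by the smaller of their 2 fold changes, as deposited and after GC correction, among those called in both with groups that do not overlap and a mean of at least 5 FPKM. The 12 largest rises joined a chemokine, secretory and proteasome components, and proteins of the detoxification and calcium-binding families. Ccl17 (chr8:94809380-94812038), a chemokine that attracts T cells through the receptor CCR4, was at 24.51, 18.93 and 22.63 FPKM in 8276OV and at 6.44, 10.01 and 7.2 FPKM in 5NC. The groups do not overlap, and its fold change was 1.39 ± 0.15 (SE, adjusted p = 3.60e-06) as deposited and 1.56 ± 0.17 (adjusted p = 1.13e-05) after GC correction. Gsta1, a glutathione S-transferase, was at 41.17, 47.78 and 41.29 FPKM in 8276OV and at 20.21, 17.09 and 20.83 FPKM in 5NC, a fold change of 1.13 as deposited and 1.01 after correction. Sec61g, a small subunit of the channel through which new proteins enter the endoplasmic reticulum, was at 304.5, 271.05 and 311.78 FPKM in 8276OV and at 155.54, 151.76 and 154.97 FPKM in 5NC. Pomp, the chaperone that assembles the proteasome core, was at 338.18, 331.24 and 342.36 FPKM in 8276OV and at 182.87, 183.55 and 204.74 FPKM in 5NC. Every 8276OV library of both genes lay above every 5NC library, and the fold changes were 0.93 and 0.82 as deposited and 1.03 and 0.79 after correction.

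Serpinb9b, a serine protease inhibitor, was at 150.14, 148.99 and 150.96 FPKM in 8276OV, against 70.91, 71.75 and 70.61 FPKM in 5NC, with little spread in either group. Ankrd1, an ankyrin repeat protein that is a standard target of YAP, averaged 220.3 ± 12.4 FPKM in 8276OV and 115 ± 0.615 FPKM in 5NC (SD, n = 3 each). S100a4, a calcium-binding protein, averaged 589 ± 35.3 FPKM in 8276OV and 314 ± 7.66 FPKM in 5NC. Arf2, a small GTPase of vesicle transport, averaged 118 ± 3.51 FPKM in 8276OV and 64.4 ± 0.757 FPKM in 5NC. For these 4 genes the fold changes were 1.07, 0.93, 0.91 and 0.87 as deposited and 0.81, 0.83, 0.89 and 0.85 after correction. Dnajc7, a partner of the chaperones Hsp70 and Hsp90, averaged 187 ± 11.1 FPKM in 8276OV and 106 ± 2.83 FPKM in 5NC. Atp13a2, a lysosomal transporter of polyamines, averaged 125 ± 7.04 FPKM in 8276OV and 70.2 ± 3.24 FPKM in 5NC, and with its GC content of 62.3% its fold change was 0.82 as deposited and 1.61 after correction. Rpl38 and Rpl39, proteins of the large ribosomal subunit, had fold changes of 0.83 and 0.84 as deposited and of 1.26 and 0.79 after correction. Ribosomal protein genes have many processed copies in the genome, and Gsta1 and Serpinb9b have close paralogs, so their values are uncertain where the counting could split reads. S100a4 shares 51.7% of its exon bases with another gene annotated on the same strand, and its fold change was 0.59 with length included.

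Ugt2a2, a glucuronosyltransferase, was picked out after its values were seen, since it lies below the level set for the largest changes. It was at 5.17, 4.84 and 3.96 FPKM in 8276OV, whereas 5NC had 0.0, 0.0 and 0.03 FPKM, and it was listed at 0 in all 3NC libraries. Exons of Ugt2a1 on the same strand cover 69.7% of its exon bases, so its reads cannot be assigned with certainty.

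Among the largest falls, Aebp1 stood apart. Aebp1 (chr11:5861866-5872248), known both as a secreted collagen-binding protein and as a transcriptional repressor, was at 2.78, 2.99 and 2.56 FPKM in 8276OV and at 23.84, 24.1 and 23.97 FPKM in 5NC. Its fold change was -2.73 ± 0.07 (SE, adjusted p = 4.34e-11) as deposited and -2.12 ± 0.06 (adjusted p = 5.29e-12) after correction. In 3NC it averaged 5.03 FPKM, nearer to 8276OV than to 5NC. Cebpd (chr16:15887286-15889545), a transcription factor induced by cytokines and nutrient stress, was at 4.03, 6.32 and 5.17 FPKM in 8276OV and at 18.87, 15.19 and 15.44 FPKM in 5NC, a fold change of -1.51 as deposited and -1.37 after correction. Taf10, a subunit of the general transcription factor TFIID, was at 25.53, 32.71 and 32.94 FPKM in 8276OV and at 80.94, 73.22 and 75.62 FPKM in 5NC. Exons of Ilk on the other strand cover 45.9% of the exon bases of Taf10, and whether the counting used strand is not given in the sources used here. Rnf130, a ubiquitin ligase of the Golgi and endosomes, was at 11.35, 9.69 and 10.6 FPKM in 8276OV and at 27.59, 25.63 and 24.94 FPKM in 5NC. The fold changes of Taf10 and Rnf130 were -1.31 and -1.23 as deposited and -1.25 and -1.22 after correction.

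Eif4ebp1, which holds back cap-dependent translation until mTORC1 phosphorylates it, was the most abundant of the largest falls, at 242.85, 289.31 and 252.75 FPKM in 8276OV, against 559.25, 528.47 and 531.78 FPKM in 5NC. Fgf21 (chr7:45613890-45615490), a hormone released under nutrient and mitochondrial stress, was at 23.08, 26.2 and 23.79 FPKM in 8276OV and at 59.91, 62.07 and 63.47 FPKM in 5NC. The groups of both genes are far apart, with fold changes of -1.05 and -1.31 as deposited and -1.13 and -0.95 after correction. H1f0, a linker histone of slowly dividing cells, averaged 6.81 ± 0.603 FPKM in 8276OV and 17.2 ± 1.14 FPKM in 5NC, and the histone variant H2afj averaged 4.75 ± 0.494 FPKM in 8276OV and 13.7 ± 0.996 FPKM in 5NC. Pgp, a phosphatase that clears side products of glycolysis, averaged 9.02 ± 1.86 FPKM in 8276OV and 28.4 ± 2.94 FPKM in 5NC. Mrps26, a protein of the mitochondrial ribosome, averaged 30.6 ± 5.15 FPKM in 8276OV and 67.8 ± 3.44 FPKM in 5NC. Arrdc4, an arrestin-like regulator of glucose uptake, and Mri1, an enzyme of methionine salvage, both had fold changes of -1.15 as deposited, and of -0.999 and -0.997 after correction. Passing in both fits was a condition for the choice of these 24 genes. Their adjusted p in limma was at most 3.60e-06 as deposited and 1.83e-05 after GC correction. All 24 also passed after correction for GC content and length. That fit shares its libraries and its GC term with the fit used for the choice, so this is no separate support.

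**Figure D2:**
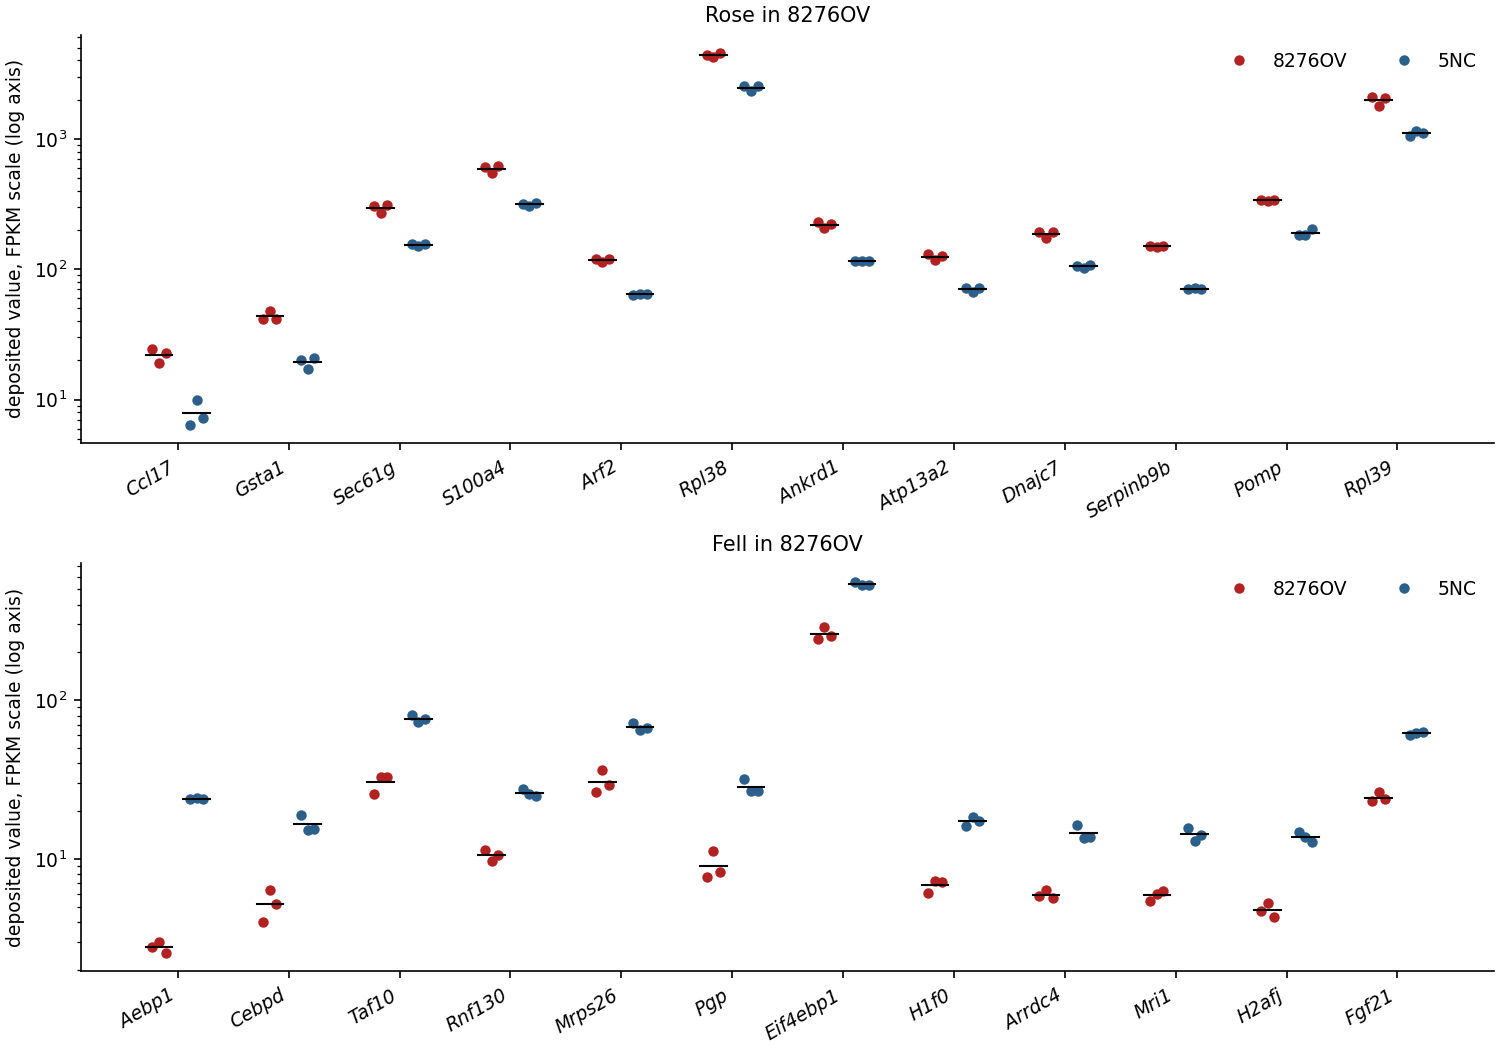
Deposited values on the FPKM scale (log axis) of the 12 largest rises (top) and 12 largest falls (bottom), with the 3 libraries of 8276OV in red left of the 3 of 5NC in blue and a line at each mean. The groups do not overlap in any of the 24 genes, which was a condition for their choice; Aebp1 shows the widest gap, with 2.56 to 2.99 FPKM in 8276OV and 23.84 to 24.1 FPKM in 5NC.

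For 3 GC-rich genes chosen as the clearest examples, the direction was set by the correction. Trim47, a ubiquitin ligase, was at 16.52, 21.27 and 17.43 FPKM in 8276OV and at 27.24, 24.48 and 23.9 FPKM in 5NC, a fold change of -0.44 as deposited and 0.40 after GC correction. Nkain1, a partner of the sodium pump, had -0.40 as deposited and 0.42 after correction, and Card10, a scaffold of NF-kB signalling, had -0.36 as deposited and 0.41 after correction. GC contents were 64.0%, 63.2% and 62.1%. Every 8276OV library of these genes lay below every 5NC library in the deposited values, so no direction is given for them.

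Subunits of the proteasome, genes of import into the endoplasmic reticulum and chaperones were more often higher than lower in 8276OV in all 3 fits. Other lists of protein breakdown were not: of 31 E2 ubiquitin-conjugating enzymes, 10 were higher and 14 lower after GC correction (10 and 15 as deposited), and lysosomal genes, given further on, also had more lower than higher. Of 37 tested proteasome subunits, 26 rose and 2 fell after GC correction (22 and 10 as deposited), with a median of 0.26 after correction, 0.24 as deposited and 0.23 after correction for GC content and length. The core subunits Psma5, Psma4 and Psmb7 and the regulatory subunit Psmd12 were the largest by the smaller of their 2 fold changes. Psma5 was at 188.51, 174.37 and 183.8 FPKM in 8276OV and at 113.62, 115.44 and 113.45 FPKM in 5NC. The fold changes of Psma5, Psma4, Psmb7 and Psmd12 were 0.67, 0.76, 0.62 and 0.74 as deposited and 0.65, 0.54, 0.57 and 0.49 after correction. Among 33 genes of the signal recognition particle, the Sec61 channel, signal peptidase and the coupled glycosylation complex, 22 rose and 4 fell after correction (21 and 7 as deposited), with medians of 0.25 after correction, 0.33 as deposited and 0.22 with length included. The signal peptidase catalytic subunits Sec11a and Sec11c averaged 145 ± 3.48 and 95.9 ± 5.23 FPKM in 8276OV, against 91.9 ± 3.32 and 59.5 ± 2.42 FPKM in 5NC. Srp54a, the GTPase that binds signal peptides on the ribosome, was at 43.77, 40.32 and 44.84 FPKM in 8276OV and at 21.81, 21.93 and 24.16 FPKM in 5NC.

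Of 29 heat shock and chaperonin genes of the cytosol and mitochondria, 28 have a GC content, of which 19 rose and 7 fell after correction, and the median was 0.20 after correction and 0.39 as deposited. Hsp90aa1, the stress-inducible form of Hsp90, averaged 901 ± 62.1 FPKM in 8276OV and 484 ± 12.3 FPKM in 5NC, a fold change of 0.89 as deposited and 0.62 after correction. Hspd1 and Hspe1, the mitochondrial chaperonin and its lid, had fold changes of 0.67 and 0.60 as deposited and 0.52 and 0.75 after correction, and Cct3 of the cytosolic chaperonin had 0.60 and 0.59. Of 22 endoplasmic reticulum chaperones and genes of the unfolded protein response, 13 rose and 6 fell after correction (11 and 6 as deposited), with a median of 0.14. Hspa5, the main chaperone of that compartment, was at 836.31, 793.64 and 823.35 FPKM in 8276OV and at 499.38, 523.47 and 502.69 FPKM in 5NC, and Manf, a secreted protein induced with it, averaged 67.9 ± 1.61 FPKM in 8276OV and 49.1 ± 1.47 FPKM in 5NC. Their direction depends on the control: in 3NC they averaged 1011 and 96.2 FPKM, above 8276OV. Against 3NC the medians were -0.01 for the proteasome, -0.03 for the heat shock list and -0.13 for the endoplasmic reticulum list, all as deposited. The signal recognition list had a median of 0.18 against 3NC as deposited and of 0.11 after GC correction, with 17 of 33 higher and 9 lower.

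**Figure D3:**
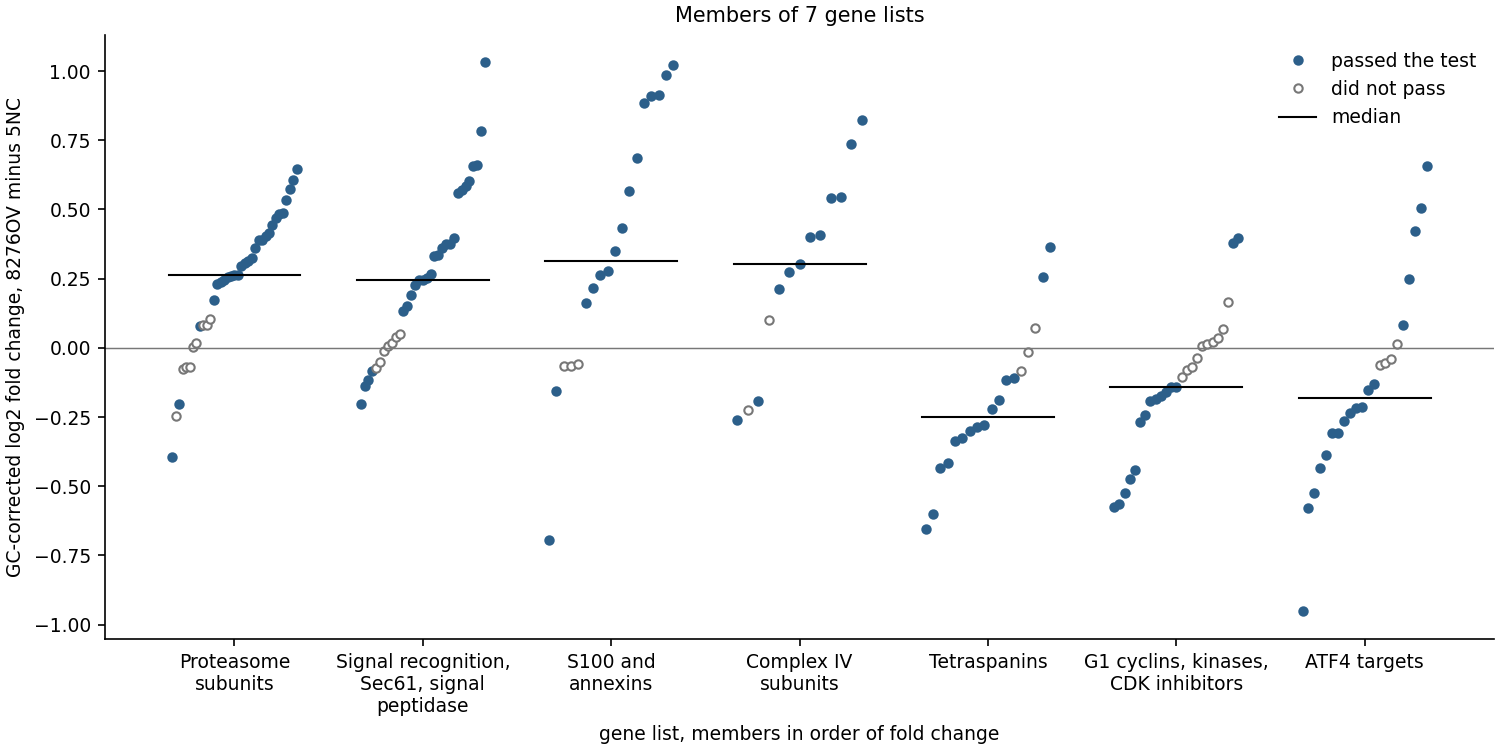
GC-corrected log2 fold change, 8276OV minus 5NC, of every member of 7 gene lists, in order of size within each list, with members that passed the test in blue, others open, and a line at the median. Members of the first 4 lists lie mostly above 0 (medians 0.26, 0.25, 0.31 and 0.30) and those of tetraspanins, G1 genes and ATF4 targets mostly below it (medians -0.25, -0.14 and -0.18).

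Subunits of the respiratory chain and ATP synthase were higher after GC correction, by an amount that shrank once length was included. The 5 complexes hold 81 tested subunits, of which 55 rose and 17 fell after GC correction, 45 rose and 25 fell as deposited, and 42 rose and 22 fell after correction for GC content and length. Medians were 0.30, 0.22 and 0.13 in that order. Complex I (37 genes) had a median of 0.32 after GC correction and 0.11 with length included, complex IV (13 genes) 0.30 and 0.16, and ATP synthase (18 genes) 0.38 and 0.16. Complex III (9 genes) had -0.12 as deposited, 0.21 after GC correction and -0.09 with length included, so its direction is not settled. Cox7a2 of complex IV was at 229.48, 240.12 and 228.74 FPKM in 8276OV and at 151.5, 147.31 and 143.57 FPKM in 5NC, with fold changes of 0.66 as deposited, 0.82 after GC correction and 0.63 with length included. Ndufa9 of complex I averaged 162 ± 4.59 FPKM in 8276OV and 104 ± 6.09 FPKM in 5NC, and Atp5l of ATP synthase averaged 475 ± 35.9 FPKM in 8276OV and 269.5 ± 3.32 FPKM in 5NC. With length included, the fold change of Atp5l was 0.44, against 0.71 after GC correction alone. In complex III, Uqcrh rose by 0.63 as deposited, 0.66 after correction and 0.40 with length included, whereas Cyc1, which carries the haem of cytochrome c1, was at 76.58, 94.62 and 82.4 FPKM in 8276OV and at 153.44, 137.3 and 147.87 FPKM in 5NC and fell by 0.79 as deposited and 0.34 after correction. With the GC content of the longest transcript the value of Cyc1 was -0.050 (adjusted p = 0.216 in limma).

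Other mitochondrial lists lay nearer to the median of all genes. Of 78 mitochondrial ribosomal proteins, 38 rose and 20 fell after correction, with a median of 0.11, and both Mrps26 and Mrps11 were among those that fell. Of 32 import genes, 12 were higher and 7 lower after correction (12 and 13 as deposited), with a median of 0.01: Timm17b of the inner membrane translocase averaged 9.40 ± 1.13 FPKM in 8276OV and 20.6 ± 1.47 FPKM in 5NC, while Timm8a1, a chaperone of the intermembrane space, averaged 105 ± 7.88 FPKM in 8276OV and 65.2 ± 3.35 FPKM in 5NC. The 2 isoenzymes of enoyl-CoA isomerase, which serve the oxidation of unsaturated fatty acids, moved in opposite directions. Eci2 was at 161.63, 153.78 and 153.64 FPKM in 8276OV and at 104.12, 101.77 and 97.11 FPKM in 5NC, and Eci1 was at 29.4, 33.62 and 30.46 FPKM in 8276OV and at 51.41, 52.11 and 52.33 FPKM in 5NC. In the pentose phosphate pathway, 4 of 10 genes were higher and 2 lower after correction (4 and 4 as deposited), with medians of 0.05 and 0.04. Against that median, Pgls, its lactonase, and Tkt, a transketolase, fell by 1.59 and 0.75 as deposited and by 0.70 and 0.43 after correction.

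Redox genes changed in both directions. Gpx4, the selenoenzyme that removes lipid peroxides and protects cells from ferroptosis, was at 98.59, 127.08 and 111.9 FPKM in 8276OV and at 332.1, 287.6 and 305.86 FPKM in 5NC, fold changes of -1.45 as deposited and -0.83 after correction. Selenom, a selenoprotein of the endoplasmic reticulum, fell by 1.46 and 0.70 in the same 2 fits, whereas Selenos, a selenoprotein of the pathway that exports misfolded proteins from it, rose by 0.77 and 0.65. Over 19 selenoproteins and glutathione peroxidases, 6 rose and 8 fell after correction (6 and 12 as deposited), with a median of -0.06, against -0.37 as deposited. Prdx1, a peroxiredoxin, averaged 775 ± 43.1 FPKM in 8276OV and 430.5 ± 17 FPKM in 5NC, and thioredoxin (Txn1) and superoxide dismutase (Sod1) rose by 0.65 and 0.51 as deposited and by 0.52 and 0.77 after correction. Of the 17 genes in their list, 8 rose and 4 fell after correction, with a median of 0.10. Ftl1, the light chain of ferritin, averaged 1352 ± 94.5 FPKM in 8276OV and 2436 ± 43.4 FPKM in 5NC and fell by 0.85 as deposited and 0.26 after correction.

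Targets of ATF4, the transcription factor of the integrated stress response, were mostly lower than in 5NC. Of 22 targets, 13 fell and 5 rose after GC correction (15 and 3 as deposited), with medians of -0.18 after correction and -0.60 as deposited. The 5 higher ones were Ddit3, Atf3, Nupr1, Psat1 and Mthfd2, with 0.66, 0.50, 0.42, 0.25 and 0.08 after correction. As deposited these had 0.23, 0.31, 0.02, 0.29 and 0.07. Next to Fgf21, Phgdh, the first enzyme of serine synthesis, was at 108.72, 140.02 and 123.61 FPKM in 8276OV and at 247.33, 242.74 and 241.67 FPKM in 5NC. Cebpb, a partner of ATF4, was at 17.24, 25 and 20.63 FPKM in 8276OV and at 80.58, 53.52 and 51.41 FPKM in 5NC, with fold changes of -1.50 as deposited and -0.58 after correction; the corrected call was lost without 8276OV replicate 1 (-0.53). Against 3NC the list went the other way, with a median of 0.23 as deposited and 0.49 after correction, and Fgf21 averaged 9.08 FPKM in 3NC, below both compared groups. Genes of insulin-like growth factor signalling had a median of -0.14 after correction and -0.48 as deposited, with 7 of 13 lower and 2 higher. Igfbp4, which holds insulin-like growth factors away from their receptor, averaged 10.1 ± 1.04 FPKM in 8276OV and 26.6 ± 1.29 FPKM in 5NC, and the growth factor Igf2 averaged 3.54 ± 0.387 FPKM in 8276OV and 8.18 ± 0.509 FPKM in 5NC. Another gene annotated on the same strand covers 62.8% of the exon bases of Igf2. Igf2bp3, an RNA-binding protein of embryonic and tumour cells, rose by 0.81 as deposited and 0.61 after correction.

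Genes of the G1 phase were mostly lower. Of 25 cyclins, kinases, inhibitors and E2F or Rb family members, 13 fell and 2 rose after correction (15 and 3 as deposited), with medians of -0.14 and -0.24 in these fits. The members that fell act in both directions on the cycle. Cdk4, the kinase of D-type cyclins, was at 150.84, 173.16 and 167.17 FPKM in 8276OV and at 284.23, 270.76 and 271.35 FPKM in 5NC. The CDK inhibitors Cdkn1b, Cdkn2c and Cdkn1c averaged 26.2 ± 0.860, 28.2 ± 1.30 and 1.39 ± 0.228 FPKM in 8276OV, against 34.4 ± 2.02, 42.5 ± 2.92 and 4.42 ± 0.769 FPKM in 5NC. Their fold changes after correction were -0.57, -0.44 and -0.52, beside -0.47 for Cdk4. With the GC content of the longest transcript Cdkn2c had 0.018. Against 3NC, Cdk4, Cdkn1b and Cdkn2c had 0.06, 0.17 and 0.07 as deposited. In the Bcl2 family, 7 of 16 fell and 3 rose after correction, with a median of -0.04. The death-promoting members Bax and Bad fell by 0.93 and 1.11 as deposited and by 0.28 and 0.40 after correction.

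At the cell surface, S100 proteins and annexins, which bind calcium and membranes, were higher, and tetraspanins, which organise receptors and integrins in the membrane, were lower. Of 18 S100 and annexin genes, 13 rose and 2 fell after GC correction (11 and 3 as deposited), with medians of 0.31, 0.26 and, with length included, 0.29; against 3NC the median was 0.18 as deposited and 0.26 after GC correction. S100a10, the partner of annexin A2, was at 733.73, 695.8 and 747.49 FPKM in 8276OV and at 417.06, 427.05 and 418.35 FPKM in 5NC, and S100a13 was at 30.15, 27.91 and 31.75 FPKM in 8276OV and at 20.18, 18.55 and 18.17 FPKM in 5NC. S100a16 went the other way, at 1.57, 1.67 and 1.42 FPKM in 8276OV and at 4.13, 3.77 and 5.34 FPKM in 5NC. Of 18 tetraspanins, 13 fell and 2 rose after correction (14 and 3 as deposited), with medians of -0.25 after correction, -0.34 as deposited and -0.25 with length included. Against 3NC the median was -0.21 as deposited and -0.09 after GC correction, with 8 lower and 3 higher. Tspan15, a regulator of the protease ADAM10, was at 5.21, 6.09 and 5.11 FPKM in 8276OV and at 10.2, 9.59 and 9.13 FPKM in 5NC. Cd82 and Tspan4 averaged 17.5 ± 2.34 and 22.8 ± 1.88 FPKM in 8276OV, against 31.1 ± 0.208 and 44.8 ± 1.94 FPKM in 5NC.

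Adhesion molecules fell and rose singly. Cdh3, the cadherin of placenta and basal epithelia, was at 33.73, 39.35 and 35.37 FPKM in 8276OV and at 65.55, 66.32 and 65.52 FPKM in 5NC, fold changes of -0.85 as deposited and -0.67 after correction, and averaged 19.5 FPKM in 3NC. Over the 21 cadherins, protocadherins and catenins tested, 5 rose and 7 fell after correction, with a median of -0.11. Of 20 adhesion molecules of the immunoglobulin type, 10 were lower and 4 higher after correction (9 and 3 as deposited), with a median of -0.16. Against 3NC after GC correction, 7 were lower and 11 higher, with a median of 0.13. Bcam, a receptor for laminin, fell by 1.08 as deposited and 0.35 after correction, Cd200 fell by 0.50 and 0.75, and Vcam1, the ligand of integrin alpha 4, rose by 0.61 and 0.35. Of 11 integrins, 4 were higher and 3 lower after correction, with Itgb3 higher by 0.45 and Itgb5 lower by 0.34 after correction.

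Actin regulators changed in both directions among close relatives. Arpc1b and Arpc3, subunits of the complex that branches actin filaments, moved apart: Arpc1b was at 167.43, 198.96 and 180.81 FPKM in 8276OV and at 355.94, 329.82 and 328.99 FPKM in 5NC, and Arpc3 was at 232.57, 220.31 and 228.45 FPKM in 8276OV and at 170.41, 156.6 and 153.33 FPKM in 5NC. Tmsb4x, which sequesters actin monomers, rose to 1645 ± 27.7 FPKM in 8276OV, against 1057 ± 23.4 FPKM in 5NC and 376 FPKM in 3NC. The fold change of Tmsb4x was 0.47 after GC correction and 0.30 with length included. Profilin 1 (Pfn1), which delivers monomers to filaments, averaged 439 ± 50.8 FPKM in 8276OV and 736 ± 9.35 FPKM in 5NC. Smooth muscle actin (Acta2) and Cnn2, a calponin, fell by 0.72 and 0.88 as deposited and by 0.72 and 0.58 after correction. Synm, an intermediate filament protein of muscle, was at 1.71, 2.65 and 2.0 FPKM in 8276OV, against 0.33, 0.35 and 0.32 FPKM in 5NC, and Prph, an intermediate filament protein of neurons, averaged 37.9 ± 3.94 FPKM in 8276OV and 105 ± 3.75 FPKM in 5NC. The list medians of focal adhesion and actin regulators, contractile genes, tubulins, intermediate filaments and metalloproteinases lay between -0.26 and -0.09 as deposited and between 0.07 and 0.11 after GC correction, so no direction is given for them.

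In membrane traffic, 19 of 55 Rab GTPases fell and 7 rose after correction, with a median of -0.07. Rab1b, of transport from the endoplasmic reticulum to the Golgi, averaged 54.2 ± 7.97 FPKM in 8276OV and 110.0 ± 4.33 FPKM in 5NC, and Rab9, of transport from late endosomes, averaged 45.6 ± 3.58 FPKM in 8276OV and 29.6 ± 1.67 FPKM in 5NC. While Arf2 rose, its relative Arf5 fell by 1.19 as deposited and 0.51 after correction, as did Cope of the COPI coat by 0.94 and 0.45. Lysosomal hydrolases and membrane proteins had a median of -0.08 after correction, with 16 of 37 lower and 5 higher, and of -0.19 as deposited. With 3NC as the control the medians were 0.21 after correction, with 27 higher and 2 lower, and 0.18 as deposited. Of the 19 subunits of the vacuolar proton pump, 9 were higher and 4 lower after correction, and Atp6v0e was at 321.13, 333.97 and 310.9 FPKM in 8276OV and at 204.01, 200.52 and 206.65 FPKM in 5NC.

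Several lists that moved as deposited lost their shift with GC correction. The 329 Zfp zinc finger genes, with a median GC content of 44.2%, had 184 higher and 78 lower as deposited and 68 higher and 42 lower after correction, with medians of 0.25 and 0.03. SR splicing factors and hnRNPs had medians of 0.22 and 0.02, cohesin and condensin genes 0.26 and 0.03, and Wnt pathway genes, with a median GC content of 56.0%, -0.45 and -0.03. None of the 34 Wnt genes was higher as deposited and 24 were lower, against 4 higher and 9 lower after correction. Hox genes had 15 lower and none higher of 24 as deposited, and 8 lower and 7 higher after correction. The heterogeneous nuclear ribonucleoproteins split: Hnrnpa1, a splicing regulator, averaged 948 ± 11.1 FPKM in 8276OV and 621 ± 13.9 FPKM in 5NC, and Hnrnpul1 averaged 66.3 ± 4.47 FPKM in 8276OV and 109.6 ± 1.83 FPKM in 5NC. The Sm and LSm proteins of the spliceosome kept a median of 0.23 after GC correction (0.27 as deposited) and 0.07 with length included; their member Snrpd1 averaged 392 ± 26.4 FPKM in 8276OV and 199.8 ± 4.48 FPKM in 5NC. Polr2g, a subunit of RNA polymerase II, averaged 223 ± 13.2 FPKM in 8276OV and 144 ± 1.05 FPKM in 5NC. Cbx8 of the Polycomb complex and Smarcd3 of the SWI/SNF complex fell by 0.78 and 1.06 as deposited and by 0.39 and 0.41 after correction, in a list with 20 of 42 lower and 11 higher after correction. Exons of Chpf2 on the other strand cover 48.2% of the exon bases of Smarcd3. The histone variant H2afv, at 50.36, 52.7 and 52.89 FPKM in 8276OV and at 76.68, 69.56 and 71.74 FPKM in 5NC, fell by 0.47 as deposited and 0.61 after correction. Over the 23 histone genes tested, 4 rose and 7 fell after correction (3 and 12 as deposited), with medians of -0.10 and -0.48. In DNA repair, with 13 of 51 genes higher and 6 lower after correction, Brca1 of homologous recombination rose by 0.58 as deposited and 0.40 after correction, and Ogg1, which removes oxidised guanine, fell by 0.79 and 0.43.

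Of 16 BMP and Id genes, 8 fell and 1 rose after correction (10 and 4 as deposited), with medians of -0.10 and -0.19. With length included 8 were lower and 4 higher, and against 3NC 8 were lower and 8 higher as deposited and 6 lower and 5 higher after GC correction. Id1, an inhibitor of basic helix-loop-helix factors induced by BMP, was at 39.55, 49.12 and 51.51 FPKM in 8276OV and at 97.6, 88.06 and 92.73 FPKM in 5NC. Smad6, the feedback inhibitor of the pathway, was at 5.16, 6.07 and 5.8 FPKM in 8276OV and at 15.45, 15.13 and 13.71 FPKM in 5NC, and the ligand Bmp4 averaged 11.6 ± 0.240 FPKM in 8276OV, against 20 ± 1.96 FPKM in 5NC and 8.89 FPKM in 3NC. Wnt4, a ligand of gonad development, fell by 1.19 as deposited and 0.73 after correction, and Jag1, a Notch ligand, rose by 0.55 and 0.50. Of the feedback genes of ERK signalling, Dusp5 fell by 0.97 and 0.46 and Dusp6 rose by 0.36 and 0.33. Over the 15 genes listed for the ERK pathway, 8 were higher and 4 lower after correction (3 and 8 as deposited). Medians were 0.17 after correction, -0.185 as deposited and -0.89 against 3NC as deposited, with 1 higher and 13 lower, so no direction is given for the list. Etv4, a transcription factor downstream of that pathway, was at 4.06, 4.52 and 4.68 FPKM in 8276OV and at 3.4, 3.73 and 3.63 FPKM in 5NC, whereas 3NC averaged 31.3 FPKM.

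The Kruppel-like factors moved singly, with 4 higher and 4 lower of 11 after correction. Klf2, whose sequence is shown above, was at 10.86, 11.24 and 11.65 FPKM in 8276OV and at 8.69, 8.08 and 9.76 FPKM in 5NC, and Klf6 was at 85.47, 75.58 and 79.7 FPKM in 8276OV and at 44.02, 44.89 and 44.85 FPKM in 5NC. Klf9, induced by glucocorticoids, fell by 0.45 as deposited and 0.57 after correction. Jund, an AP-1 subunit, and Jdp2, a repressor of AP-1, fell by 1.32 and 0.95 as deposited and by 0.40 and 0.48 after correction, and a gene annotated on the other strand covers 52.6% of the exon bases of Jund. Next to Ccl17, the chemokines Ccl2 and Ccl7, which attract monocytes, averaged 404 ± 33.7 and 36.5 ± 2.35 FPKM in 8276OV, against 229.5 ± 0.910 and 22.3 ± 0.257 FPKM in 5NC. Il18, a cytokine activated by the inflammasome, rose by 0.68 as deposited and 0.38 after correction. With length included Ccl7 and Il18 had 0.22 and 0.24, against 0.38 for both after GC correction alone. Over 21 chemokine, colony-stimulating factor and interleukin genes, 6 rose and 2 fell after correction (11 and 4 as deposited). Of 67 genes of interferon response and antigen presentation, 63 have a GC content, of which 12 rose and 20 fell after correction, with a median of -0.03. Oasl1, an interferon-induced inhibitor of antiviral signalling, averaged 9.85 ± 1.21 FPKM in 8276OV and 19.6 ± 0.537 FPKM in 5NC. Ifi27l2a, another interferon-induced gene, averaged 6.83 ± 1.33 FPKM in 8276OV and 4.34 ± 0.813 FPKM in 5NC, and its call as deposited (adjusted p = 0.025 in limma) was lost in the fits without 8276OV replicate 1 (0.50) or 2 (0.45) or without 5NC replicate 1 (0.54) or 3 (0.44). Its fold change was 0.79 after GC correction and 0.48 with length included. Of 18 circadian clock genes none rose and 5 fell after correction (2 and 13 as deposited), among them Ciart and Nr1d1, repressors of the clock, by 0.43 and 0.28.

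6 genes of spermatogonia and adhesion were examined by name. Id4, which marks spermatogonial stem cells, was at 0.82, 0.46 and 0.46 FPKM in 8276OV and at 1.32, 1.3 and 1.21 FPKM in 5NC, and its fold change was -0.53 as deposited and -0.85 after correction, at a level where few fragments are counted. Etv5, a transcription factor of stem cell self-renewal, was at 2.26, 2.82 and 2.26 FPKM in 8276OV and at 2.7, 3.52 and 3.07 FPKM in 5NC. The groups overlap, and the fold change of -0.25 as deposited (adjusted p = 0.0218) became -0.09 after correction (adjusted p = 0.367). The call as deposited was also lost without 8276OV replicate 1 (-0.21) or 3 (-0.21) or without 5NC replicate 2 (-0.17). N-cadherin (Cdh2) rose by 0.19 as deposited and 0.20 after correction, to 105 ± 2.14 FPKM in 8276OV, against 91.6 ± 0.595 FPKM in 5NC and 51.7 FPKM in 3NC. Beta-catenin (Ctnnb1) had -0.16 as deposited and -0.07 after correction (adjusted p = 0.128). Cdh1 and Gfra1 did not pass the filter on low values.

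The choice of control changed the direction of part of these results. With 3NC as the control, 10 of 73 list medians changed sign as deposited, with both medians larger in size than the replicate SD of the list. Set against the same 5NC medians as deposited, 11 of 73 changed sign with GC correction and 20 with GC correction and 3NC. Against 3NC, 8538 genes (75.2%) passed as deposited, 33.5% higher and 41.7% lower, and 7472 (67.1%) after GC correction, 33.2% higher and 33.8% lower. With 3NC in place of 5NC, 21 of the 24 largest changes passed with the same sign both as deposited and after GC correction; the exceptions were Gsta1, Fgf21 and Arrdc4. Gsta1 averaged 43.4 ± 3.78 FPKM in 8276OV, against 19.4 ± 2 FPKM in 5NC and 65.5 FPKM in 3NC, so it lay between the 2 controls, as did Fgf21. Arrdc4 averaged 5.96 FPKM in 8276OV, against 14.5 FPKM in 5NC and 6.53 FPKM in 3NC. Both sets were smaller against 3NC as deposited. The median over the 12 falls was -0.51, against -1.27 with 5NC, and over the 12 rises 0.60, against 0.89 with 5NC. The 24 genes were chosen by their difference from 5NC, which favours larger values with that control. For Aebp1 the fold change against 3NC was -0.68 as deposited and -0.14 after GC correction. Both comparisons share the 8276OV libraries, so their values are given side by side and not as separate support.

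**Figure D4:**
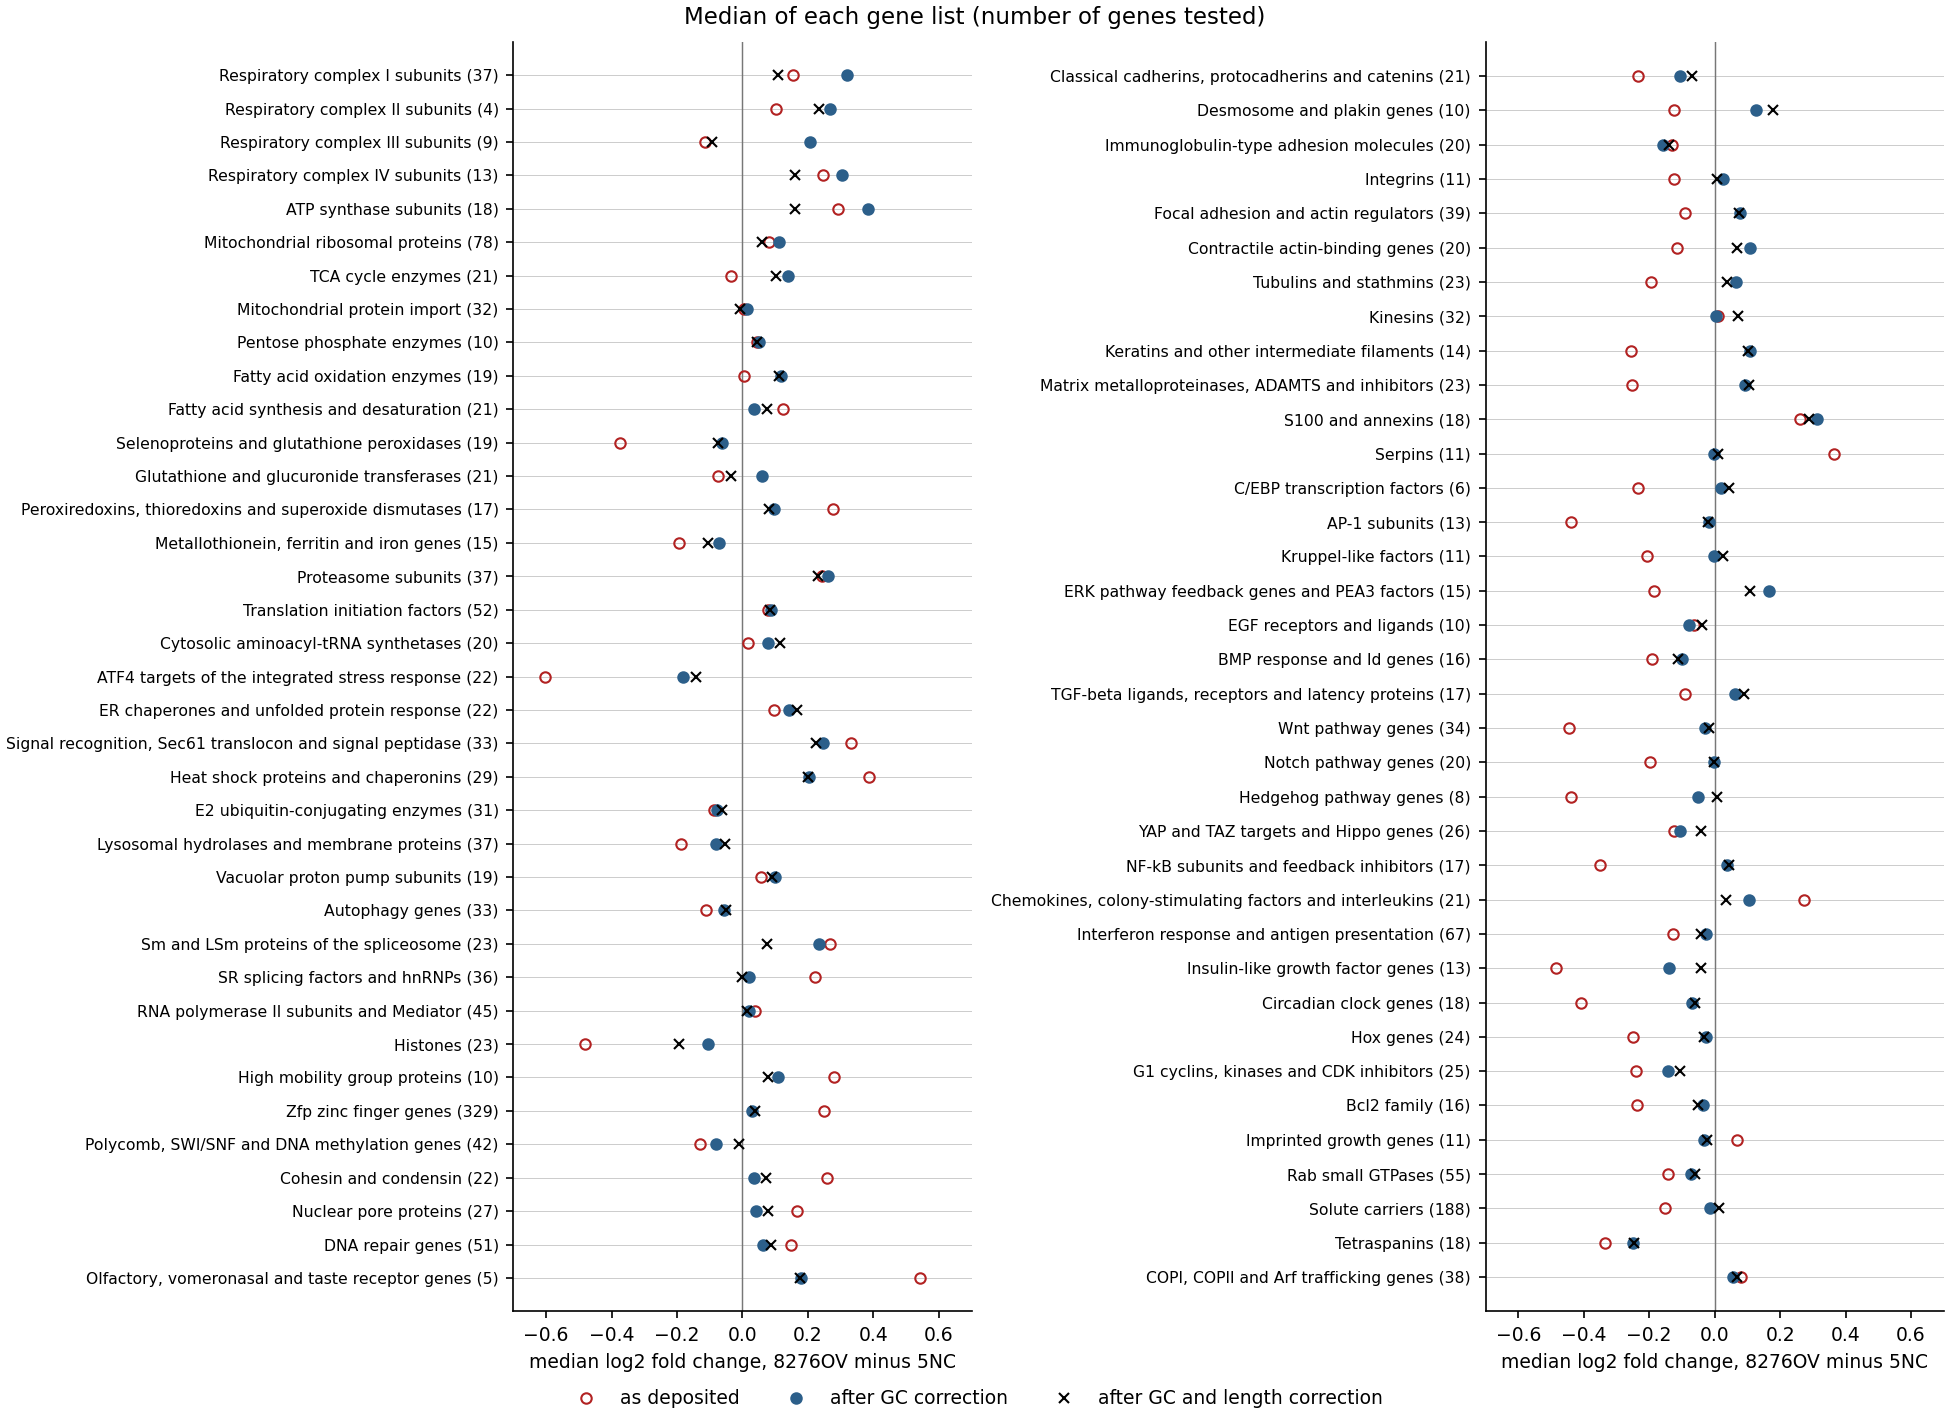
Median log2 fold change, 8276OV minus 5NC, of 73 gene lists with the number of tested genes in parentheses, as deposited (open red circles), after GC correction (blue) and after correction for GC content and length (crosses). Proteasome, signal recognition, S100 and annexin, and tetraspanin lists keep a median beyond 0.2 or -0.2 in all 3 fits, whereas the zinc finger, Wnt and histone lists move towards 0 with GC correction.

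Of the 74 lists examined, the list of noncoding RNA host genes had no tested gene, and the lists given no median above lay between -0.11 and 0.18 after GC correction, apart from the 4 subunits of complex II at 0.27. Solute carriers, the second largest list, had 40 higher and 49 lower of 188 after correction (36 and 91 as deposited), with a median of -0.01. Serpinf1, a secreted serpin that inhibits vessel growth, averaged 18.7 ± 1.51 FPKM in 8276OV and 41.5 ± 1.96 FPKM in 5NC, in a list with 3 of 11 higher and 3 lower after correction. Autophagy genes, nuclear pore proteins and RNA polymerase II subunits with Mediator had medians of -0.06, 0.04 and 0.02. Overlaps were looked up for 132 of the genes named with a fold change, and 12 share at least 20% of their exon bases with another gene. Among them are Cdkn1c, Ftl1, Cebpb, Bad, Dusp5 and Pgls beside those given above, and their reads may belong in part to the neighbour. Against 3NC as deposited, 21 of the 132 had the opposite sign and 8 more were no longer called. Against 3NC after GC correction, 32 had a sign opposite to that with 5NC as deposited. In that fit 12 more were no longer called, and 88 kept sign and call.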

How the data were processed

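Total RNA of virus-transfected C18-4 cells was sequenced. The authors deposited 1 table of 17576 genes in 12 libraries; its values were read as FPKM from their range and sums, since the deposited headers do not name the unit, and TPM cannot be told apart from it. The submitters' processing notes name mm10; for the aligner, counting, strand and annotation the sources used here give nothing. No fragment counts were used here, so depth and counting error are unknown; column sums of the 6 libraries were 533099 to 557679. Log2(value + 1) of genes with at least 1 in 3 of the 12 libraries was fitted with limma 3.58.1 (R 4.3.3; 4 group means over all 12 libraries, trend and robust variance), with Benjamini-Hochberg adjustment over all genes tested and a threshold of 0.05. An exact permutation of 3 against 3 cannot go below 0.1.

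For the GC correction, a natural spline (5 degrees of freedom) of each library's deviations from the gene means on GC content was removed, with GC content averaged over GENCODE M21 transcripts matched to curated RefSeq records (11140 of 11360 genes, 98.1%). This measure was chosen after seeing the data, because the longest transcript is a retained-intron form for 1634 tested genes; that version, the left-out libraries after GC correction and 3NC after GC correction were also added after seeing the data. Gene positions are RefSeq's on GRCm38.p6; 17458 genes had an entry, and 27 symbols, 25 of them turned into dates, were replaced from it. Named genes are the 12 largest rises and 12 largest falls by the smaller of both fold changes (mean at least 5, groups that do not overlap), up to 4 members of each list by the same measure (mean at least 1, or the members of highest mean), 3 genes called with opposite signs, the cell markers and 6 genes of adhesion and spermatogonia. The genes, lists and tests were chosen with earlier results of these data known, and list counts are descriptions with no test. The fits were tested on simulated data. Alternatives were other controls, scalings, pseudocounts, filters, GC and length corrections, a replicate block and left-out libraries.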

Additional observations from a re-analysis of the deposited data

How the results depend on the processing

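Counts of called genes as deposited stayed within 1.5 times the reported ones for 8276OV against 5NC under all alternatives without GC correction. The median over all genes was -0.058 with 3NC as the control, -0.075 with the mean of both controls, -0.126 with equal library sums, -0.005 with median-of-ratios factors, 0.029 with quantile normalization, -0.101 and -0.095 with pseudocounts of 0.1 and 0.5, -0.012 without a filter and -0.074 with a minimum of 5. Equal sums gave 3071 higher and 5335 lower genes. Genes lower were 3005 after GC correction (median -0.004), 2899 with length included (0.009) and 3022 with the GC content of the longest transcript (0.002). With GC correction and 3NC as the control the median was -0.002. Leaving out each library gave 7781 to 8496 called genes as deposited, 4656 to 4976 of them lower, and medians of -0.091 to -0.088. Leaving out each library after GC correction gave 5272 to 5679 called genes, 2635 to 2850 of them lower and medians of -0.005 to -0.001. Among named genes, the calls of Etv5 and Ifi27l2a as deposited and of Cebpb after correction were lost without single libraries.

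After GC correction Trim47, Nkain1 and Card10 changed sign (0.40, 0.42 and 0.41), likewise with length (0.42, 0.39 and 0.49), with the longest transcript (0.39, 0.40 and 0.40, and Cdkn2c 0.018) and without each library (0.37 to 0.43, 0.35 to 0.48 and 0.38 to 0.47); as deposited they stood at -0.54 to -0.37, -0.44 to -0.32 and -0.47 to -0.30 without each library. With 3NC as the control, signs changed for Gsta1 (-0.58), Fgf21 (1.33), Hspa5 (-0.30), Manf (-0.50), Uqcrh (-0.045), Eci2 (-0.24), Selenos (-0.14), Vldlr (0.039), H2afv (0.14), Cdk4 (0.06), Cdkn2c (0.072), Cdkn1b (0.17), Igfbp4 (0.12), Igf2bp3 (-0.073), Bmp4 (0.35), Dusp6 (-0.54), Etv4 (-2.58), Ciart (0.60), Cdh3 (0.85), Cd200 (0.93) and Acta2 (0.50). With the mean of both controls they changed for Fgf21 (0.01), Manf (-0.018), Dusp6 (-0.09), Etv4 (-1.17), Cdh3 (0.00) and Cd200 (0.22). With 3NC after GC correction they changed for Gsta1 (-0.71), Fgf21 (1.63), Nkain1 (0.031), Card10 (0.41), Psmd12 (-0.09), Hsp90aa1 (-0.035), Hspa5 (-0.45), Manf (-0.43), Uqcrh (-0.047), Eci2 (-0.23), Selenos (-0.27), Phgdh (0.042), Brca1 (-0.12), Ogg1 (0.034), Cdkn1c (0.25), Cdk4 (0.28), Cdkn2c (0.16), Igfbp4 (0.47), Igf2bp3 (-0.28), Bmp4 (0.63), Dusp6 (-0.59), Etv4 (-2.02), Jdp2 (0.21), Ciart (0.75), Cdh3 (0.98), Cd200 (0.67), Bcam (0.15), Acta2 (0.48), Prph (0.056), Tspan15 (0.016), Rab1b (0.051) and Ctnnb1 (0.053). The cause was not tested.

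Samples with the same replicate number did not deviate together: the correlations of their deviations were -0.15, -0.18 and -0.03 as deposited and -0.04, 0.02 and -0.00 after GC correction. With the replicate number as a block 3435 genes were higher and 4972 lower, and with the block and GC correction 2954 were lower, the median was -0.004, and Trim47, Nkain1 and Card10 stood at 0.40, 0.42 and 0.41.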
